A study of Homo sapiens with 12 samples.

Results

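The interaction of serum and KAP1 depletion is the difference between 2 serum effects: the log2 change in RNA level on serum stimulation in KAP1-depleted cells minus the same change in cells that kept KAP1. It was measured with all 12 RNA-seq libraries of the series and for each of the 13093 genes that reached 10 counts in 6 or more libraries, out of 19901 genes in the count table. The other 6808 genes were left out for low counts. The same number is the dTAG against DMSO difference with serum minus that difference without serum, so a gene can enter through its level before serum, through its level after serum, or through both.

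The cells were HCT116, a human colorectal carcinoma line, of the genotype KAP1_dTAG, clone D5, in which endogenous KAP1 carries a tag that the small molecule dTAG directs to degradation. All 12 libraries came from this 1 clone and all cells were held in serum-free medium for 48 h. For the last 8 h of that time the cells received DMSO, the solvent, or dTAG. Cells were then left without serum (DMSO-S0 and dTAG-S0) or given serum for 30 min (DMSO-S30 and dTAG-S30), with 3 libraries in each of the 4 groups. The titles of the groups without serum carry both a 0 and a 30 and were read as no serum. Libraries held 20537682 to 26278707 counts. In these bulk samples fewer cells and less RNA per cell cannot be told apart, and the control lacked dTAG, so an effect of the compound that does not pass through KAP1 cannot be told apart from depletion. The epithelial markers EPCAM, KRT8, KRT18, KRT19, CDH1 and CLDN4 stood at 72.6 to 599 normalised CPM (counts per 1e6 of library size) in all libraries and the intestinal factor CDX2 at 11.5 to 16.9 CPM, whereas CDX1, VIL1 and LGR5 were at or near 0. Of the markers of other cell types, PTPRC, CD3E, PECAM1 and ALB were at most 1.54 CPM, and the fibroblast collagen gene COL1A1 ranged from 11.8 to 85.5 CPM. Which cells gave the COL1A1 reads, and whether they had a part in any result, was not tested.

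Serum growth factors activate kinase cascades that act on factors already present at promoters, and immediate early genes (IEGs) such as those for FOS, JUN, EGR and ATF3 are then transcribed within minutes, with no need for new protein synthesis. Many IEGs have promoter-proximal RNA polymerase II (Pol II) paused before the stimulus, and its release by the kinase P-TEFb sets when RNA begins to rise. KAP1, encoded by TRIM28, is best known as the corepressor that KRAB zinc finger proteins bring to heterochromatin, and it also occupies promoters of inducible genes together with the 7SK complex, which holds P-TEFb. The TRIM28 transcript does not report on loss of the protein, and it stood at 99.1, 91.5 and 100.2 CPM in DMSO-S0 and at 95.2, 85.5 and 97.2 CPM in dTAG-S0. With serum it stood at 120.4, 109 and 115 CPM in DMSO-S30 and at 103, 116 and 117 CPM in dTAG-S30. The groups overlapped on both sides of serum, and its interaction was 0.02 ± 0.10 (SE, log2) with a 95% interval of -0.18 to 0.22.

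Only 5 genes passed an adjusted p of 0.05 in the interaction, CXCL8, JUN, INSIG1, ATG12 and ATF3, which is 0.0382% of the genes tested. To show what lies upstream of them, the 250 bases before the transcription start are given for the 4 that have a single start in the RefSeq table (GRCh38.p14), at chr4:73740319-73740568 (plus strand), chr1:58784048-58784297 (minus strand), chr7:155297628-155297877 (plus strand) and chr5:115841566-115841815 (minus strand), read 5′ to 3′ on the gene's strand. Capitals mark matches on either strand to the AP-1 motif TGANTCA or to TGACG, the core of the cAMP response element bound by CREB and ATF factors.
CXCL8: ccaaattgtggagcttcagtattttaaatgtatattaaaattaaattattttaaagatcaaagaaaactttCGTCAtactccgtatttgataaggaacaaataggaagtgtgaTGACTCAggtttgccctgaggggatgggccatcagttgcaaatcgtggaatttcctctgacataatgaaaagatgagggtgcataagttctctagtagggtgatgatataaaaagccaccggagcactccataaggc
JUN: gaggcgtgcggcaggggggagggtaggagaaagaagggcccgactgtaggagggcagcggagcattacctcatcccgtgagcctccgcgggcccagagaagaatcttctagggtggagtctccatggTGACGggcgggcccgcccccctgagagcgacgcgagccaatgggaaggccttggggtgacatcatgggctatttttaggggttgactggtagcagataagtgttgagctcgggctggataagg
INSIG1: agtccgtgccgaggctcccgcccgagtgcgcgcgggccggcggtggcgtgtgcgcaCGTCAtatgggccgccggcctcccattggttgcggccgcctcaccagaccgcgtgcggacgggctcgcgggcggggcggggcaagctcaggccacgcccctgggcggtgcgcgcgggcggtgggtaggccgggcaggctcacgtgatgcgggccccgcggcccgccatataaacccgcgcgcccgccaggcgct
ATG12: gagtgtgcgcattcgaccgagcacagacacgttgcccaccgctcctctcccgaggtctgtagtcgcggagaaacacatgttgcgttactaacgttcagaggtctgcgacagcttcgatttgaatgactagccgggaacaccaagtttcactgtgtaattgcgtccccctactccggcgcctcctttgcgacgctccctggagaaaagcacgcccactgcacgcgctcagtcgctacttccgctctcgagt
CXCL8 held the AP-1 letters 137 to 131 bases before its start and the core letters 179 to 175 bases before it. JUN held the core letters 123 to 119 bases and INSIG1 194 to 190 bases before the start, and the ATG12 window held neither motif. Of all 35116 windows of this length, 6.57% held TGANTCA and 21.2% held TGACG, which also lies within the full element TGACGTCA held by 1.65%. Among windows of genes tested, 4.58% held TGANTCA and 27% held TGACG. Among windows of genes that serum raised at least 2-fold on average, 6.89% and 39.7% did. The 2 windows of ATF3 held neither motif. The search also covered GGAATG (TEAD), GCGTGGGCG and GCGGGGGCG (EGR), and 1 fixed pattern of letters each for SREBP, NF-kappaB and the CArG box. No exact match to any of these was in the 4 windows. The CXCL8 window holds a stretch that departs from the NF-kappaB pattern in its first letter alone, a T in place of a G. Near matches were not searched for, so a missing pattern does not show that a site is absent. Shares of all windows were 11.9% for TEAD, 0.72% and 4.72% for the EGR motifs, 0.0342% for SREBP, 5.21% for NF-kappaB and 1.16% for the CArG box, the element bound by serum response factor. These matches are letters in a window and not measured sites.

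To ask how many genes responded to serum by a different factor once KAP1 was depleted, edgeR's quasi-likelihood test was run on the interaction with Benjamini-Hochberg adjustment over all genes tested. All 5 called genes lay below 0, meaning a smaller factor of serum induction in dTAG than in DMSO, and none lay above 0. At an unadjusted p under 0.05, 414 genes (3.16%) passed, of which 234 lay below 0 (1.79% of genes tested) and 180 above it (1.37%). That share is under the 0.05 of genes that would pass by chance if no gene differed. Being among the 234 or the 180 therefore does not show that a gene responded differently. At an unadjusted p under 0.001, 26 genes lay below 0 (0.199%) and 1 above (0.00764%), the latter being MYH7B, a myosin heavy chain gene with a mean of 16.5 counts a library. The direct comparisons called more genes. Without serum, dTAG differed from DMSO in 171 genes (1.31%), with 112 higher (0.855%) and 59 lower (0.451%), and with serum in 161 genes (1.23%), with 78 higher (0.596%) and 83 lower (0.634%). Each of these tests carries its own threshold, so a call on 1 side of serum alone does not show a different response.

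Genes called through the level before serum were CXCL8, JUN and INSIG1. CXCL8 encodes interleukin 8, a chemokine that attracts neutrophils. Its level was 3.39, 2.80 and 2.31 CPM in DMSO-S0, 7.19, 9.70 and 9.41 CPM in dTAG-S0, 37.0, 34.7 and 35.0 CPM in DMSO-S30 and 32.0, 36.7 and 39.5 CPM in dTAG-S30. Without serum every dTAG library stood above every DMSO library, and with serum the groups overlapped. The dTAG against DMSO difference was 1.69 ± 0.14 (SE, log2, adjusted p = 2.8e-08) without serum and -0.06 ± 0.09 (adjusted p = 0.87) with it. Serum raised CXCL8 13.4-fold in DMSO and 3.95-fold in dTAG, an interaction of -1.76 ± 0.17 on the log2 scale (95% interval -2.11 to -1.40, adjusted p = 2.6e-06). In CPM, which weighs added RNA and not its ratio to the start, the gain was 32.7 ± 0.78 in DMSO and 27.3 ± 2.32 in dTAG (SE), a difference of -5.43 ± 2.44.

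JUN encodes c-Jun, the main DNA-binding partner of FOS in AP-1. It stood at 9.70, 9.95 and 9.86 CPM in DMSO-S0 and at 15.4, 14.9 and 17.1 CPM in dTAG-S0. With serum the libraries gave 185, 173 and 200.4 CPM in DMSO and 149.6, 151 and 177 CPM in dTAG. The groups were separate without serum, with dTAG higher, and with serum dTAG libraries lay lower apart from 1 that overlapped the DMSO range. The difference was 0.69 ± 0.10 without serum (log2, adjusted p = 0.00012) and -0.25 ± 0.07 with serum (adjusted p = 0.096). Serum raised JUN 19.2-fold in DMSO and 9.97-fold in dTAG, and the interaction was -0.94 ± 0.12 (95% interval -1.20 to -0.69, adjusted p = 0.00036). The gain in CPM was 176 ± 7.92 against 143 ± 8.98.

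INSIG1 encodes the endoplasmic reticulum protein that retains the SREBP escort SCAP when sterols are plentiful, and INSIG1 is itself an SREBP target. Its level was 119.8, 111 and 110.2 CPM in DMSO-S0, 199.8, 187 and 194 CPM in dTAG-S0, 390.4, 391 and 411 CPM in DMSO-S30 and 467, 442 and 413 CPM in dTAG-S30. The dTAG libraries were higher on both sides of serum and did not overlap the controls on either. With serum the margin was small, at 413 against 411 CPM for the closest libraries. The difference was 0.77 ± 0.06 without serum (log2, adjusted p = 2.8e-08) and 0.15 ± 0.06 with serum (adjusted p = 0.35). Serum raised INSIG1 3.50-fold in DMSO and 2.27-fold in dTAG, giving an interaction of -0.62 ± 0.09 (95% interval -0.81 to -0.44, adjusted p = 0.00084). The gain in CPM was 283.5 ± 7.32 in DMSO and 247 ± 15.9 in dTAG (SE), a difference of -36.5 ± 17.5.

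ATF3, a bZIP transcription factor of the stress and serum responses, entered through both sides. The libraries gave 16.4, 14.4 and 16.1 CPM in DMSO-S0, 18.9, 18.1 and 20.3 CPM in dTAG-S0, 1025, 991 and 1109 CPM in DMSO-S30 and 843, 727 and 779 CPM in dTAG-S30. The groups did not overlap on either side, with dTAG higher before serum and lower after it. The difference was 0.29 ± 0.09 without serum (log2, adjusted p = 0.13) and -0.41 ± 0.07 with serum (adjusted p = 0.00091). Serum raised ATF3 66.5-fold in DMSO and 41-fold in dTAG, and the interaction was -0.70 ± 0.12 (95% interval -0.94 to -0.46, adjusted p = 0.0060).

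ATG12 was the only called gene whose difference lay after serum. It encodes a ubiquitin-like protein that is joined to ATG5 during formation of autophagosomes. Its level was 70.9, 70.1 and 68.3 CPM in DMSO-S0, 70.7, 72.0 and 69.2 CPM in dTAG-S0, 89.7, 91.2 and 95.8 CPM in DMSO-S30 and 65.4, 65.2 and 62.6 CPM in dTAG-S30. Without serum the groups overlapped, and with serum every dTAG library was below every DMSO library and also below its own starting range. The difference was 0.02 ± 0.06 without serum (log2, adjusted p = 0.93) and -0.52 ± 0.06 with serum (adjusted p = 4.0e-06), for an interaction of -0.54 ± 0.08 (95% interval -0.72 to -0.37, adjusted p = 0.0025). In CPM, ATG12 gained 22.4 ± 1.99 in DMSO and changed by -6.26 ± 1.21 in dTAG (SE). The fitted serum effect in dTAG, -0.14 ± 0.06 on the log2 scale, was not called (adjusted p = 0.084). Over all genes tested the median serum effect, averaged over treatments, was -0.07. The 5′ end of the counted ATG12 span overlaps AP3S1 of GENCODE v44, a divergent gene for an adaptor protein subunit, by 267 bases. The counted spans of both genes share a longer stretch, from 115841481 to 115841858 on chromosome 5. AP3S1, chosen after its values were seen, stood at 119, 125 and 108 CPM in DMSO-S0, 107, 111 and 104 CPM in dTAG-S0, 140.2, 149 and 145 CPM in DMSO-S30 and 111, 107 and 99.7 CPM in dTAG-S30. It too differed with serum (-0.46 ± 0.06, adjusted p = 8.5e-05) and not detectably without it (-0.12 ± 0.06, adjusted p = 0.46), and its interaction of -0.33 ± 0.09 missed the adjusted threshold (unadjusted p = 0.0011). The strand setting of the counting is not given in the sources used here, so reads in the overlap cannot be told apart. Of 13 genes of autophagy conjugation and initiation tested, ATG12 alone was called in the interaction, where 0.0382% of all genes were, and its conjugation partner ATG5 gave 0.01.

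**Figure D1:**
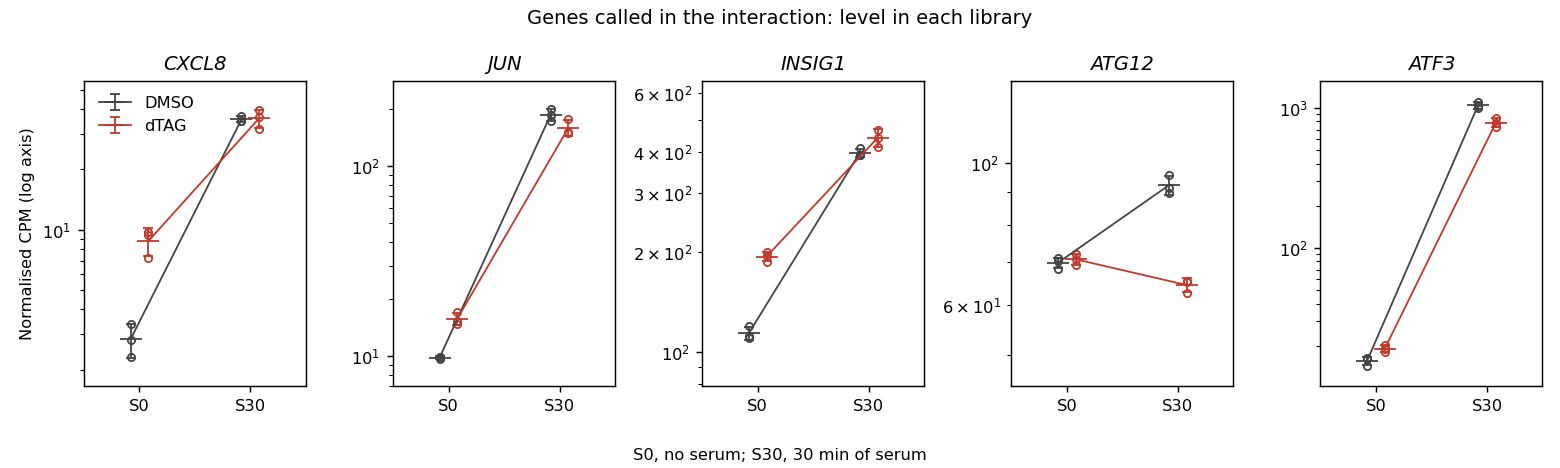
Normalised CPM on a log axis in each of the 12 libraries for the 5 genes called in the interaction, without serum (S0) and with 30 min of serum (S30), for DMSO and dTAG. Open circles are libraries, horizontal marks group means and bars the SD of 3 libraries. The gap between treatments lies at S0 in CXCL8, JUN and INSIG1, at S30 in ATG12, and at both with opposite order in ATF3.

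To place the difference before or after serum for more than the called genes, a gene was put before serum where its dTAG against DMSO difference without serum was at least 2 times that with serum in size, after serum where the reverse held, and in both otherwise. Of the 234 genes below 0 at unadjusted p under 0.05, 62 were placed before (26.5%), 83 after (35.5%) and 89 in both (38.0%). Over all genes tested the shares were 27.6%, 26.9% and 45.5%. Of the 180 genes above 0, 56 were placed before, 43 after and 81 in both. Differences on the 2 sides had opposite signs in 193 of the 234 genes below 0 and in 161 of the 180 above 0, against 37.0% of all genes, and a share above that is partly set by the choice of genes with a large difference between the sides. The median of the genes below 0 was 0.16 without serum and -0.20 with it, and of the genes above 0 it was -0.17 and 0.15. These medians are a description, because the interaction that chose the genes is made from both.

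**Figure D2:**
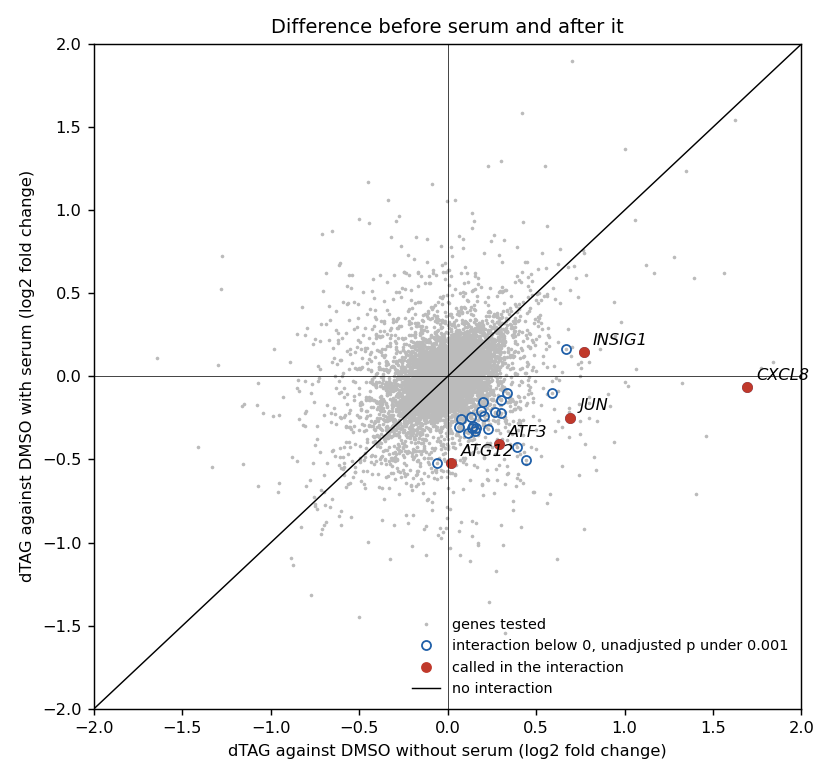
Each point is 1 gene tested, with the log2 dTAG against DMSO difference without serum on the x axis and with serum on the y axis. The diagonal marks no interaction, filled red points are the 5 called genes and open blue points the genes below 0 at unadjusted p under 0.001. Axes end at 2 in both directions, leaving 2 genes outside. CXCL8 lies far to the right near 0 on the y axis and ATG12 lies straight below the origin.

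The genes below 0 were largely genes that serum raised. Averaged over both treatments, serum changed 5662 genes (43.2%), of which 1726 were higher (13.2%) and 3936 lower (30.1%). Of the lowered genes, 3562 changed by a log2 of less than 0.5. The median averaged serum effect over all genes was -0.067 here, 5.3e-05 with TMM and -0.0085 with DESeq2 size factors. The split into higher and lower may therefore depend on the scaling. The averaged serum effect uses the same libraries as the interaction but is balanced against it, so that picking genes on it does not fix the sign of the interaction. Of the 234 genes below 0 at unadjusted p under 0.05, 131 were raised by serum (56.0%), and all 26 at p under 0.001 were. Of the 180 genes above 0, 63 were lowered by serum (35.0%) and 15 were raised.

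The size of the serum effect went with the interaction. Among the 41 genes raised at least 8-fold (log2 of 3 or more), 38 lay below 0, with a median interaction of -0.44, against 48.7% of all genes tested below 0 with a median of 0.0036. The median interaction was -0.30 in the 51 genes raised by a log2 of 2 to 3, -0.14 in 173 raised by 1 to 2, -0.07 in 320 raised by 0.5 to 1 and -0.02 in 1141 raised by less. It was 0.01 in 7431 genes not called for serum, and 0.06 and 0.07 in the 331 and 43 genes lowered by a log2 of 0.5 to 1 and of 1 or more. In the genes raised at least 8-fold the median dTAG against DMSO difference was 0.15 without serum and -0.28 with it, so both sides contributed and the part after serum was larger. Each dTAG library set against the mean of the matching DMSO libraries gave medians of 0.06, 0.06 and 0.16 without serum and -0.27, -0.34 and -0.16 with serum. Of these 41 genes, 8 had at most 3 counts in every DMSO-S0 library, where a log2 difference rests on few reads. Leaving out the genes that low in either group without serum, a step added after the data were seen, gave -0.41 over 33 genes, 32 of them below 0.

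All 265 genes raised at least 2-fold had a median interaction of -0.19, with 214 below 0, 75 past unadjusted p of 0.05 below 0 and 2 above. Their median was 0.09 without serum and -0.12 with it. Split by gene length, the 67 shortest genes (1.211 to 6.405 kb) had a median of 0.11 without serum and -0.09 with serum, while the 66 longest (49.443 to 959.304 kb) had 0.0024 and -0.11. The median interaction was -0.21, -0.21, -0.23 and -0.12 over 4 sets of equal size from the shortest to the longest genes. Differences between these sets were not tested. Leaving out dTAG-S0 replicate 3 brought the median of the 265 genes without serum to 0.05, and leaving out DMSO-S30 replicate 3 or dTAG-S30 replicate 2 brought their median with serum to -0.07 or -0.08. Of 305 RefSeq windows of these genes, 7.87% held the full element TGACGTCA against 2.40% of windows of genes tested, and 7.21% held the CArG box against 1.14%, as a description with no test.

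**Figure D3:**
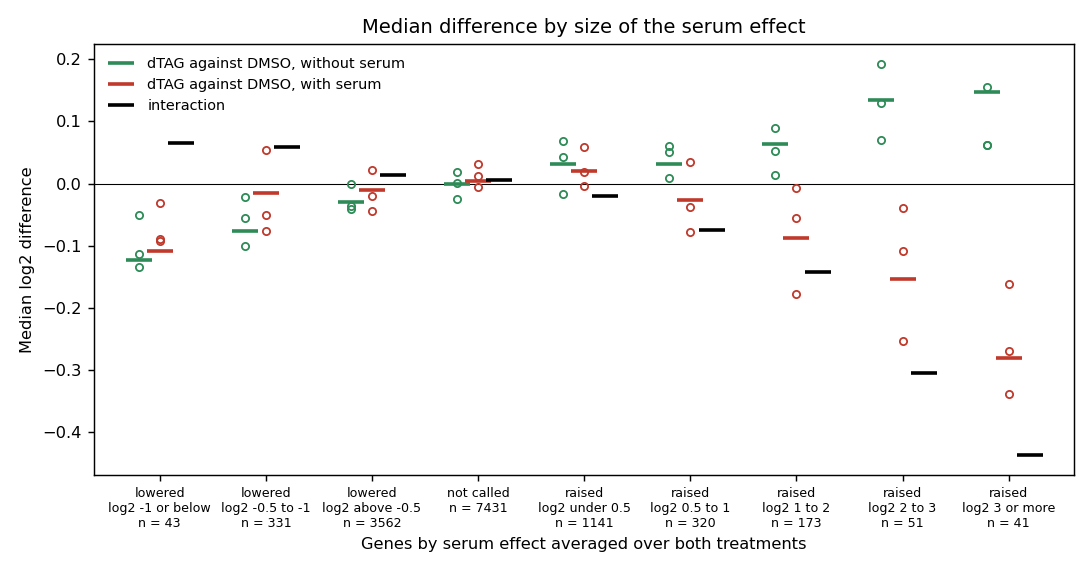
Median log2 differences over genes grouped by the serum effect averaged over both treatments, from strongly lowered on the left to strongly raised on the right, with the number of genes under each group. Horizontal marks are medians of fitted values without serum (green), with serum (red) and of the interaction (black), and open circles are the 3 dTAG libraries against the DMSO mean, before the spike-in factor was fitted. Toward the right the green marks go up to 0.15 and the red marks down to -0.28.

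The AP-1 genes differed among themselves. JUN, JUNB and JUND lay below 0, at -0.94 for JUN, -0.48 for JUNB (unadjusted p = 0.00046) and -0.27 for JUND (unadjusted p = 0.026), and only JUN was called. JUN and JUND were higher in dTAG without serum (JUND 0.34, adjusted p = 0.027), and none of the 3 was called with serum. JUNB stood at 34.9, 36.4 and 31.6 CPM in DMSO-S0 and at 45.2, 36.8 and 40.9 CPM in dTAG-S0, just apart, and at 288, 265 and 309 against 227, 249.5 and 276 CPM with serum, where the groups overlapped. JUNB lies wholly within HOOK2 on the other strand. The 4 FOS genes also lay below 0 without a call, at -0.31 for FOSL2, -0.29 for FOSL1, -0.17 for FOS and -0.04 for FOSB.

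FOS, the gene most used as a reporter of the serum response, had its difference after serum. Its level was 6.41, 5.18 and 4.86 CPM in DMSO-S0, 5.08, 4.63 and 5.04 CPM in dTAG-S0, 536, 456 and 464 CPM in DMSO-S30 and 372, 403 and 399 CPM in dTAG-S30. The groups overlapped without serum, and with serum all dTAG libraries were lower. The difference was -0.15 ± 0.13 without serum and -0.32 ± 0.07 with serum (adjusted p = 0.017). The interaction was -0.17 ± 0.15 with a 95% interval of -0.49 to 0.14 (unadjusted p = 0.27), so a call with serum went together with a serum effect that could not be told apart between treatments.

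Other IEG transcription factors also lay mostly below 0. The NR4A genes, for orphan nuclear receptors, lay below 0, at -0.44 for NR4A1 (unadjusted p = 0.00076), -0.41 for NR4A2 (unadjusted p = 0.0012) and -0.61 ± 0.30 for NR4A3 (unadjusted p = 0.050), and none was called in any of the 3 comparisons of treatment. NR4A1 went from 11.3, 12.2 and 11.5 CPM to 676, 688 and 729 CPM in DMSO and from 16.3, 14.5 and 13.6 CPM to 666, 599 and 672 CPM in dTAG. The groups were apart before serum with dTAG higher (0.34 ± 0.09, adjusted p = 0.068). They were apart by a smaller margin after it with dTAG lower (-0.10 ± 0.06, adjusted p = 0.64). Of 6 EGR and NAB genes, 5 lay below 0. EGR3 gave -0.82 ± 0.17 (adjusted p = 0.072), with 0.39 without serum and -0.43 with it (adjusted p = 0.0021), and EGR1 gave -0.30 (unadjusted p = 0.014). A long noncoding gene on the other strand covers 55.9% of EGR3. All 7 KLF genes lay below 0, led by KLF10 at -0.21 and KLF9 at -0.47, with no call. Of the small MAF and ATF3 list, MAFF gave -0.52 (unadjusted p = 0.0012).

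The dual-specificity phosphatases remove the activating phosphates of MAP kinases. Of 10 dual-specificity phosphatase genes tested, 8 lay below 0, and none was called in the interaction, where 0.0382% of all genes were. Of these 10, 2 were called higher without serum (0.855% of all genes were) and 1 lower with serum (0.634%). DUSP5, which acts on nuclear ERK, stood at 118, 114 and 118 CPM in DMSO-S0 and at 141, 139 and 152 CPM in dTAG-S0, then at 2164, 2128 and 2261 against 2016, 1922 and 2017 CPM with serum. The groups were apart on both sides and crossed over, with differences of 0.30 (adjusted p = 0.010) and -0.14 (adjusted p = 0.38) and an interaction of -0.44 ± 0.09 (adjusted p = 0.072). DUSP8 gave -0.69 ± 0.17 (unadjusted p = 0.00033), with 0.59 without serum (adjusted p = 0.020) and -0.10 with it. Of 6 Sprouty and SPRED genes, 2 lay below 0, against 48.7% of all genes, and SPRY4, an inhibitor of receptor tyrosine kinase signalling, gave 0.16. The median log2 serum effect, averaged over treatments, was 1.33 in the phosphatase genes and 0.32 in the Sprouty and SPRED genes, so the lists also differ in induction.

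With 0.0382% of all genes called in the interaction, the secreted ligands and proteases held no call there apart from CXCL8. Its relative, the chemokine gene CXCL1, was called higher without serum (1.28, adjusted p = 0.020) and gave 0.72 with serum (adjusted p = 0.24), with an interaction of -0.56 ± 0.40. CXCL2 gave 0.94 and 0.44. Both are scarce, at means of 32.3 and 48.2 counts a library, and the intervals of their interactions reach past 0. AREG, the gene for amphiregulin, gave an interaction of -0.35 ± 0.09 (unadjusted p = 0.00053), and the other EGF receptor ligand genes EREG and HBEGF gave -0.13 and -0.30. PLAU and PLAUR, for urokinase and its receptor, were called higher without serum, at 0.49 and 0.57, and not with serum, at 0.13 and 0.29. F3, for tissue factor, was called with serum (0.36, adjusted p = 0.013) and not without (0.26, adjusted p = 0.16), yet its interaction was 0.10 ± 0.12, so its response was not shown to differ.

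The sterol genes were higher in dTAG on both sides of serum. Of 18 cholesterol synthesis enzyme genes tested, 15 were called higher in dTAG without serum and 14 with serum, against 0.855% and 0.596% of all genes, and none was called in the interaction. Their median was 0.48 without serum, 0.37 with it and -0.07 in the interaction. Fatty acid and triglyceride genes were called higher in 8 of 10 on each side, with a median interaction of 0.02. Of 9 sterol sensing and LDL uptake genes, INSIG1 alone was called in the interaction, where 0.0382% of all genes were.

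Other lists differed between treatments with a median interaction near 0. Of 10 NF-kappaB feedback genes, 4 were called higher without serum, against 0.855% of all genes, and 1 with serum, against 0.596%. None was called in the interaction, and the medians were 0.31, 0.25 and -0.06. BIRC3, an inhibitor of apoptosis and the gene with the largest difference among them, was 1.35 higher without serum and 1.24 with it, on the log2 scale, and was chosen after its values were seen. Of 8 YAP-TEAD target genes, 2 were called lower without serum and 5 with serum, against 0.451% and 0.634% of all genes, but 4 lay on each side of 0 in the interaction, with a median of 0.01. Of 13 genes for KAP1, its paralogs and its silencing partners, 3 were called lower on each side, against the same 0.451% and 0.634%, and none in the interaction, and TASOR, of the HUSH silencing complex, gave -0.27 and -0.38. None of the 137 tested ZNF genes on chromosome 19, which include many KRAB zinc finger genes, or of the 72 ribosomal protein genes was called in the interaction or on either side of serum. With 0.0382% of all genes called in the interaction, 1.31% without serum and 1.23% with serum, few or no calls are the background in lists of these sizes, so nothing is read from the absence of calls. Their median interactions were 0.01 and -0.03. The ribosomal protein genes lay slightly lower in dTAG, with medians of -0.06 without serum (59 of 72 below 0, against 52.4% of all genes) and -0.10 with serum (69 of 72, against 50.2%). The median with serum was -0.04 without dTAG-S30 replicate 1, and leaving out DMSO-S0 replicate 2 or 3 brought that without serum to -0.02 or -0.12.

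Of 18 genes for P-TEFb, the 7SK complex and elongation factors, none was called in the interaction, where 0.0382% of all genes were. ELL2, an IEG and a subunit of super elongation complexes, gave -0.46 ± 0.12 (unadjusted p = 0.00089) through its level after serum, with -0.06 without serum and -0.52 with it (adjusted p = 0.00023). CCNT1, the cyclin of P-TEFb, gave -0.26 (unadjusted p = 0.0066). Among 14 p53 targets, PMAIP1 and GDF15, for the apoptosis activator NOXA and a stress cytokine, had their difference after serum, at -0.34 and -0.33 (adjusted p = 0.0073 and 0.025), with interactions of -0.45 and -0.48 that were not called. Of 10 clock genes, BHLHE40 gave -0.50 ± 0.13 (unadjusted p = 0.00069) through 0.67 before serum (adjusted p = 0.00017). In CPM it gained 153 ± 8.39 in dTAG and 141 ± 6.24 in DMSO. The difference in gain, 12.04 ± 10.46 (SE), was close to its SE, so a smaller factor of induction went with gains that were not shown to differ. The remaining lists held no call in the interaction. Among their leading genes, ZC3H12A of the mRNA decay factors gave -0.44, SOCS3 -0.32, BCL6 of the FOXO and MondoA targets -0.33 and ISG15 of the interferon response -0.52. IER2 gave -0.30, CSRNP1 -0.28, HERPUD1 of the unfolded protein response -0.27, VCL of the SRF and actin targets -0.20, and SMAD6 and ID3 of the BMP and TGF-beta targets 0.21 and 0.13. The MYC and MAX network had a median of 0.01.

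**Figure D4:**
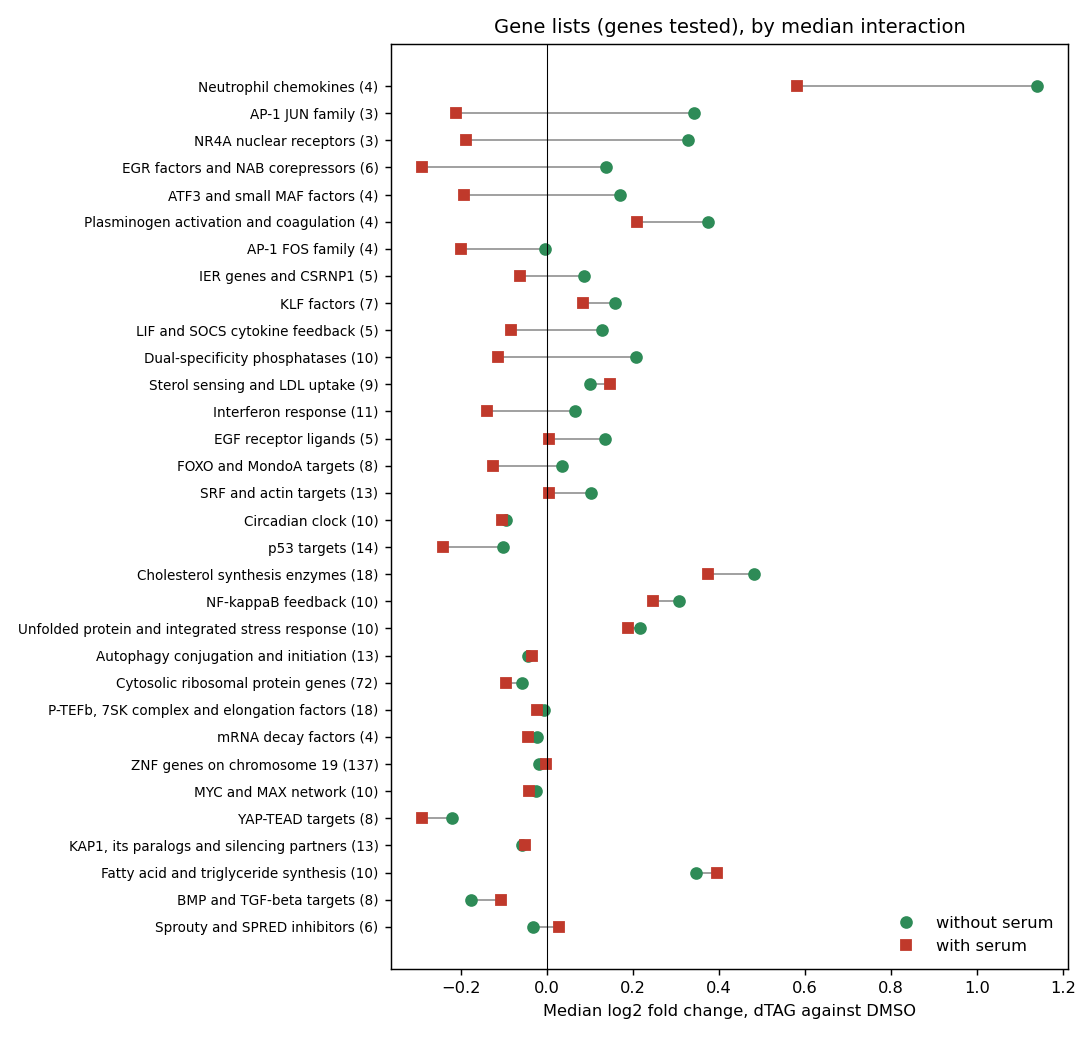
Median log2 dTAG against DMSO difference without serum (green circles) and with serum (red squares) for each gene list, with the number of genes tested in parentheses, ordered by the median interaction with the lowest at the top. The JUN, NR4A and EGR lists cross 0 from right to left, while the cholesterol, fatty acid and YAP-TEAD lists keep both marks on the same side.

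Below the called genes, the next in order of p also lay below 0 and rose with serum in both treatments. BCL10, a signalling adaptor upstream of NF-kappaB, stood at 37.2, 38.4 and 37.0 CPM in DMSO-S0 and at 41.3, 42.5 and 41.8 CPM in dTAG-S0, then at 84.7, 90.1 and 85.9 against 68.4, 75.2 and 67.2 CPM with serum. The groups were apart on both sides, higher in dTAG before serum and lower after it, and the interaction was -0.47 ± 0.09 (adjusted p = 0.057). ANKRD37, a target of hypoxia-inducible factor, gave -0.94 ± 0.21 (adjusted p = 0.18) at a mean of 204 counts a library, and 23.7% of it overlaps UFSP2.

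No gene above 0 passed the adjusted threshold. Among genes with at least 1 CPM on average, those with the smallest p were SLC25A42, a mitochondrial carrier for coenzyme A (0.42 ± 0.12, adjusted p = 0.54), LRP1, a large endocytic receptor (0.35 ± 0.10, adjusted p = 0.63), and SEMA4D, a semaphorin (0.33 ± 0.10, adjusted p = 0.68). SLC25A42 stood at 23.2, 21.9 and 24.5 CPM in DMSO-S0, 21.0, 20.9 and 20.7 CPM in dTAG-S0, 17.7, 18.6 and 19.3 CPM in DMSO-S30 and 22.0, 22.0 and 23.5 CPM in dTAG-S30. Its DMSO libraries were lower with serum than without, and its dTAG libraries were not. The next were CALCRL, GPR155, RGS3, RAMP1, OSBP2 and 2 genes known by identifier only, ENSG00000272104 and ENSG00000272647, at 0.28 to 0.77. All 10 lay below 0 without serum and above 0 with it, a pattern partly set by choosing genes on the difference between the sides. CALCRL and RAMP1 encode the receptor and the accessory subunit that together bind CGRP.

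**Figure D5:**
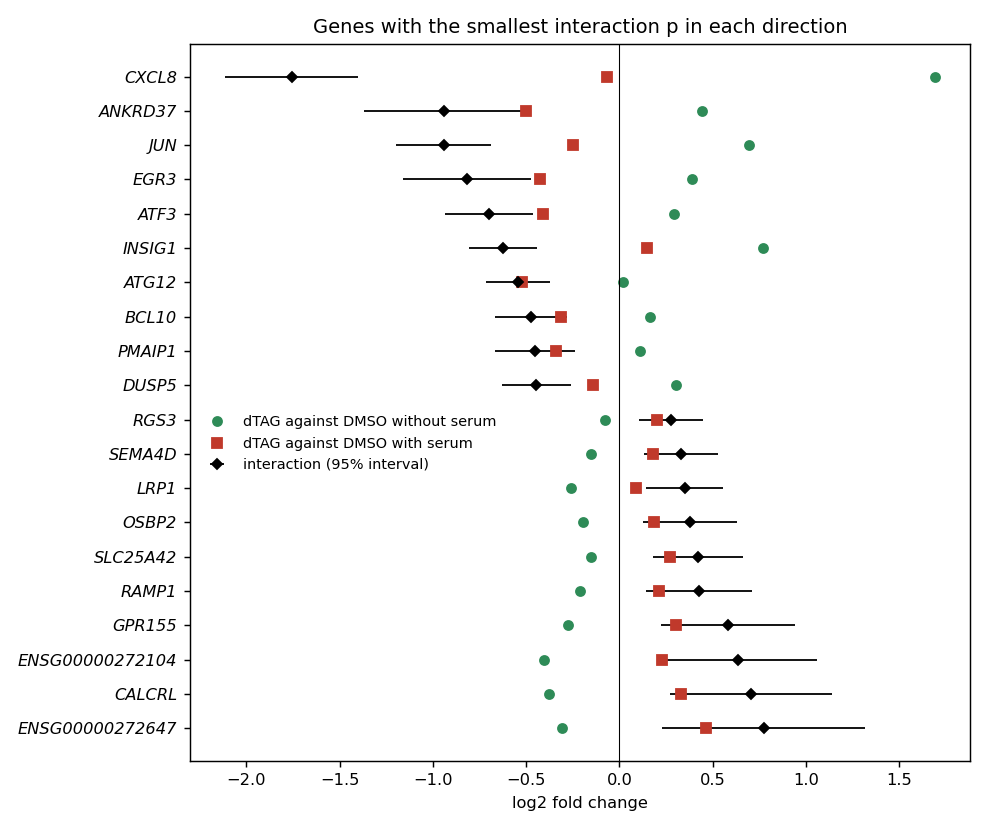
Interaction with its 95% interval (black diamonds) for the 10 genes with the smallest p below 0 and the 10 above 0 among those with at least 1 CPM on average, in log2, with the dTAG against DMSO difference without serum (green) and with serum (red). The upper 10 run from -1.76 to -0.44 and the lower 10 from 0.28 to 0.77.

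The largest values by size at unadjusted p under 0.05 came from scarce genes, with means of 7.92 to 93.9 counts a library, and none was called. Above 0 these were MYH7B at 2.01 ± 0.53, TBX15 at 1.81 ± 0.81 and SNAI2, which had no count in any dTAG-S0 library, so no fold is given. SNAI2 stood at 0.687, 0.529 and 0.483 CPM in DMSO-S30 and at 1.57, 0.894 and 1.04 CPM in dTAG-S30. Below 0 they were SYCP2 at -2.11 ± 0.79, the unnamed gene ENSG00000274897.2 at -1.99 ± 0.83, and TGFBI, which was at most 0.333 CPM in every library without serum.

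The precision varied with the counts. The median SE of the interaction was 0.115 on the log2 scale, and its 95% interval lay within 0.5 of 0 on either side for 9919 genes (75.8%) and within 1 for 11815 genes (90.2%). In the 3274 genes with the lowest counts (median 62 a library) the interval lay within 0.5 for 14.5%. These intervals give the sizes that the data leave possible for each gene and are no limit of detection, since 4 of the 5 called genes had interactions of under 1 in size. Reads were counted over whole genes with introns, so a gene inside another can hold reads of both. By GENCODE v44 this concerns FOSB, which lies wholly within ERCC1, NR4A3 within STX17-DT, CALCRL within its antisense gene, MAFF (89.0% under PLA2G6) and PLAU (90.5% under C10orf55), beside the overlaps given above. ENSG00000274897.2 lies wholly within PANO1 on the same strand. ENSG00000272104 shares 44.4% with CYB561D2 and ENSG00000272647 36.2% with ZNF655, both on the same strand. Long noncoding genes on the other strand cover 51.2% of BCL6 and 49.4% of CSRNP1. Smaller overlaps are not listed.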

How the data were processed

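RNA was measured in HCT116 cells by RNA-seq of ribosomal RNA-depleted total RNA with ERCC spike-ins. The authors deposited raw read counts per gene, introns included, made with FastQC 0.11.8, Trim Galore 0.6.4, STAR and featureCounts of Subread 1.6.3 on hg38 (names and versions per the submitters' processing notes, which also list edgeR 3.40.1, with STAR and the introns from the study's methods). The annotation release and strand setting are not given in the sources used here. The study describes the 3 libraries of a group as biological replicates.

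Genes that reached 10 counts in 6 or more libraries were kept. Counts were scaled by the upper quartile, 1 unwanted factor, drawn from the 69 of 92 ERCC transcripts past the filter (7.97% to 9.37% of counts), entered the model beside the 4 groups, and contrasts were tested by the quasi-likelihood test of edgeR 4.0.16 in R 4.3.3 with Benjamini-Hochberg adjustment over 13093 genes. The factor was computed by singular value decomposition of the spike-in log counts. A call is an adjusted p under 0.05. CPM are scaled counts before the factor, and 19802 genes carried a symbol.

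The genes named are those called, the 10 with the smallest interaction p in each direction at 1 CPM or more, TRIM28 and 4 IEGs, all tested members of lists of up to 5 genes and the 2 with the smallest p of longer lists, and the 3 largest in each direction at unadjusted p under 0.05, apart from those said to be chosen after their values were seen. The comparison, the gene lists and the rules were chosen with earlier results of these data known. Members of lists whose interaction was near 0 are given by counts. Some list members are not reported here.

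Alternatives were another scaling (TMM, size factors of DESeq2 1.42.0, ERCC totals), 0 or 2 spike-in factors, other count filters, a likelihood ratio test, the DESeq2 Wald test, limma 3.58.1 with voom, a replicate block and each library left out. The scripts were tested on simulated data.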

Additional observations from a re-analysis of the deposited data

Results flagged for a closer look

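For 5 genes the serum effect differed between dTAG and DMSO by a test of that difference (edgeR's quasi-likelihood test, adjusted p under 0.05), and these values stand here because they met that test. The log2 serum effect in dTAG minus that in DMSO was -1.76 for CXCL8, -0.94 for JUN, -0.62 for INSIG1, -0.54 for ATG12 and -0.70 for ATF3. The serum effects themselves were 1.98 against 3.74 in CXCL8, 3.32 against 4.26 in JUN, 1.18 against 1.81 in INSIG1, -0.14 against 0.41 in ATG12 and 5.36 against 6.06 in ATF3, dTAG against DMSO. Groups of 3 libraries were too small to look for single outlying libraries.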

How the results depend on the processing

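The 5 called genes were called in each of the 12 fits that left out a library and in the other alternatives run, with 2 exceptions. With ERCC totals as library sizes ATG12 and ATF3 were no longer called (adjusted p = 0.12 and 0.052), and the DESeq2 Wald test gave no adjusted p for CXCL8. The count of genes called in the interaction was 8 with TMM, 3 with ERCC totals, 9 with 2 spike-in factors, 24 with no count filter, 10 by the likelihood ratio test, 10 by DESeq2, 7 by limma with voom (1 of them, SNAI2, above 0) and 5 to 14 with a library left out. It was 8 without DMSO-S0 replicate 2, DMSO-S0 replicate 3, dTAG-S0 replicate 1 or dTAG-S30 replicate 1, 11 without DMSO-S30 replicate 1 and 14 without dTAG-S30 replicate 3. For dTAG against DMSO without serum the count was 76 with ERCC totals, 306 with no filter, 287 by the likelihood ratio test and 110 to 295 with a library left out (281 without DMSO-S30 replicate 1, 284 and 110 without dTAG-S0 replicates 2 and 3, 295 without dTAG-S30 replicate 3). With serum it was 66, 290, 266 and 96 to 260 (260 and 244 without DMSO-S0 replicates 1 and 2, 96 without DMSO-S30 replicate 2 or 3, 243 without dTAG-S30 replicate 1), and ERCC totals gave 3428 genes for the averaged serum effect. A ratio of 1.5 in place of 2 placed 56 genes below 0 and 51 above 0 in both, and a ratio of 3 placed 35 of those above 0 before serum. The median over genes raised at least 8-fold ran from -0.44 to -0.31 with a library left out, the latter without dTAG-S0 replicate 3 (an alternative chosen after seeing the data). Values near 0 changed sign: TRIM28 in the interaction (-0.054 to 0.098 with a library left out, with values of -0.054, -0.041, -0.047, -0.0059 and -0.0041 without DMSO-S0 replicate 3, DMSO-S30 replicate 2, dTAG-S0 replicate 2, dTAG-S30 replicate 2 or dTAG-S30 replicate 3), ATG12 without serum (-0.00072 to 0.038 with a library left out, the former without DMSO-S0 replicate 3) and CXCL8 with serum (0.020 with ERCC totals, 0.021 without a spike-in factor, and -0.15 to 0.022 with a library left out, the latter without dTAG-S30 replicate 1). The causes were not tested beyond what each setting changes. Depth limits the scarce genes most, as their intervals are widest.

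Whether the replicate numbers pair the libraries is not given. Over all 4 groups, correlations of deviations ran from -0.38 to 0.32 over 18 same-numbered pairs, with 9 over 0.1, and from -0.43 to 0.46 over 36 other pairs, with 12 over 0.1, so the numbers were not taken as a pairing for the interaction or for dTAG against DMSO. Between DMSO-S0 and DMSO-S30 alone, all 3 same-numbered pairs lay over 0.1 (0.16 to 0.23) and the other-numbered pairs below 0 (-0.14 to -0.029). Deviations within a group sum to 0, so positive same-numbered pairs largely force negative values in the others. The positive pairs are at most a hint of pairing in the controls, picked out after the values were seen. With a replicate block the counts were 7 for the interaction, 173 without serum, 167 with serum and 5705 for the averaged serum effect, and the 5 genes stayed called.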
